A study of Mus musculus with 4 samples.

Results

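The genes described here are antiviral effectors: genes that cells switch on after an interferon signal and whose products sense, degrade or block viral nucleic acids and particles. They were a list of 42 symbols, of which 41 were found among the 27998 genes of the deposited table. The gene not found there was Mx2, which was not analysed here. The level of each gene was read in cell classes built from marker genes and set side by side between 4 treatments.

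Type I interferon binds its receptor on almost any nucleated cell and, through JAK kinases, brings transcription factors to a DNA element called the interferon-stimulated response element, ISRE. The genes with this element in their control regions include RNA sensors, enzymes that lead to RNA decay or halt translation, proteins that hold virions at membranes, and parts of the ISG15 conjugation system. In tumours and effusions the same genes serve as a readout of interferon exposure, because they answer interferon whether or not a virus is present.

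The cells came from the pleural fluid of C57BL/6 mice with a malignant pleural effusion raised by LLC, a mouse lung carcinoma line. Mice were given PBS, LNP-cGAMP at 1 µg, the anti-PD-L1 antibody 10F.9G2 at 30 µg, or both agents (called the combination) into the pleural space on day 11, and fluid cells were taken on day 13, which is 48 h later. LNP-cGAMP carries cGAMP, a dinucleotide messenger that switches on interferon genes through the adaptor STING, in nanoparticles, and anti-PD-L1 blocks the ligand of the T cell checkpoint PD-1. Each treatment was 1 library of 10x Genomics droplets, pooled from 3 mice, in which unique molecular identifiers (UMIs) count RNA molecules. The age of the mice was not given in the sources used here.

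With 1 library per treatment no difference has a replicate check, no test was run and no p-value is given. Levels are counts per 1000000 (CPM), the UMIs of a gene among all UMIs of a class in a library, and every series of 4 values below follows the order PBS, LNP-cGAMP, anti-PD-L1, combination. Log2 ratios are log2 of (CPM + 10) over (CPM + 10), which draws low levels towards 0, whereas folds are plain ratios of CPM. Their intervals are exact 95% intervals that cover counting error only, not the spread between mice. A gene counted as measured in a class when its mean over the 4 libraries was at least 20 CPM, and a member counted as higher or lower in a comparison from a 1.5-fold log2 ratio on.

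The libraries held 68828158 to 88855120 UMIs, and 2841, 3839, 3392 and 3547 cells were kept. Of the 13619 cells, 107 (0.786%) had a barcode that was a cell in more than 1 library. Classes with at least 50 cells in every library were monocyte/macrophage-like (1260, 2270, 1589 and 2330 cells), neutrophil-like (870, 1082, 920 and 590), T cell-like (82, 241, 148 and 161) and conventional dendritic cell-like (114, 55, 108 and 73). Each carried its own markers: 16 of 16 monocyte/macrophage, 12 of 12 neutrophil, 9 of 10 T cell and 9 of 11 dendritic cell markers reached 50 CPM in at least 1 library. Clusters were named from these same lists, so this is no separate check of the names. The mark is also low, since 12 of 16 monocyte/macrophage markers reached it in dendritic cell-like and 11 of 16 in T cell-like cells. Median UMIs per cell were 20638 to 39824 in monocyte/macrophage-like and 2092 to 2512 in neutrophil-like cells. A single cluster (374, 30, 471 and 211 cells, led by Cd74 and Ccr2) mixed monocyte/macrophage with dendritic cell markers and stayed without a name.

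The pools were not alike in the sex of their mice. A cell was called female with a UMI of Xist and none of 4 Y-linked genes, and male the other way round. Female calls made up 0.948% of called PBS cells and 0.185% of LNP-cGAMP cells, but 68.1% with the antibody alone and 78.5% with both agents. Male-called and female-called cells of a mixed pool come from different mice, so each mixed library holds a comparison between mice, which is given near the end.

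To show the element that the group is known for, the promoter windows of RefSeq (GRCm38.p6, 250 bases before to 50 after an annotated start) were searched on both strands for the ISRE core GAAANNGAAA, where N is any base. Of the 42 symbols 31 had a window, and 14 of these 31 (45.2%) held the core, against 3.99% of the 27025 genes of the table and 3.44% of its 32851 windows. The core of the gamma-activated site, TTCNNNGAA, which reads the same on both strands and can share bases with an ISRE, was found in 5 of 31 (16.1%), against 9.55% of genes and 8.30% of windows. No ISRE core was found in the windows of, among others, Slfn4, Oasl2 and Ifitm1, which says only that these letters are absent from them. Symbols with no entry included Ifi27l2a, Pyhin1, Ifi204, Zbp1 and Mx1. The 6 windows below are examples, from the OAS, Phf11, PYHIN and IFITM families and Rsad2, of members described further on. Each shows 20 bases on either side of the core, 5′ to 3′ on the strand of the gene, with the core in capitals (on the Rsad2 line the core lies on the other strand, and on the Oas1a line 2 overlapping cores are joined).
Oas1a: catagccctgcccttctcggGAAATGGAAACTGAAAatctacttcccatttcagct
Oas3: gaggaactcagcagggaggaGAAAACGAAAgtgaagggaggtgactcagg
Rsad2: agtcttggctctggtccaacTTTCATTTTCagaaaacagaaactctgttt
Phf11b: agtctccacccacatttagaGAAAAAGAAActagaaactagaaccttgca
Ifi203: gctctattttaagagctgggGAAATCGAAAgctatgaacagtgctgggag
Ifitm2: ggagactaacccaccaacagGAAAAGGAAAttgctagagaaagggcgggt

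All 6 genes lie on the minus strand, and the windows are chr5:120907510-120907565, chr5:120777705-120777754, chr12:26456543-26456592, chr14:59341351-59341400, chr1:173942498-173942547 and chr7:140955978-140956027. The first base of the core stands 20, 75, 120, 50, 35 and 46 bases before the annotated start in the same order. Holding the core did not go with one size of response: under LNP-cGAMP against PBS in monocyte/macrophage-like cells the median log2 ratio was 0.74 over 14 measured members with the core and 0.84 over 16 with a window but no core. In neutrophil-like cells it was 0.67 over 14 and 0.42 over 15. These are descriptions of the listed members and were not tested.

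Across the untreated and treated libraries the members were not spread evenly over the cell classes. Their summed level was 32896, 44365, 45084 and 45364 CPM in neutrophil-like cells, 21150, 34803, 20701 and 23448 CPM in conventional dendritic cell-like cells, 12594, 19543, 14619 and 16974 CPM in monocyte/macrophage-like cells and 5711, 6324, 4925 and 4380 CPM in T cell-like cells. In all 4 libraries the order of the classes was therefore neutrophil, dendritic cell, monocyte/macrophage, T cell. Neutrophil-like cells had the highest mean over libraries for 30 of 41 members, dendritic cell-like cells for 8 and monocyte/macrophage-like cells for 3, while T cell-like cells had it for 0. This order is one of shares of the UMIs, not of molecules per cell. Median UMIs per cell were 2092 to 2512 in neutrophil-like against 20638 to 39824 in monocyte/macrophage-like cells. For 18 members the top class lay above every other class in all libraries, which was the case for 53.8% of the 7148 genes measured in at least 1 class. By the 20 CPM limit 29 members were measured in every class. Not measured were Ifi44 in monocyte/macrophage-like, Cmpk2 in dendritic cell-like and Mx1, Ifi44 and Phf11d in neutrophil-like cells, and in T cell-like cells Oas1a, Oas2, Oasl1, Mx1, Rsad2, Cmpk2, Ifih1, Ifi44, Slfn4, Slfn5 and Ube2l6.

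**Figure D1:**
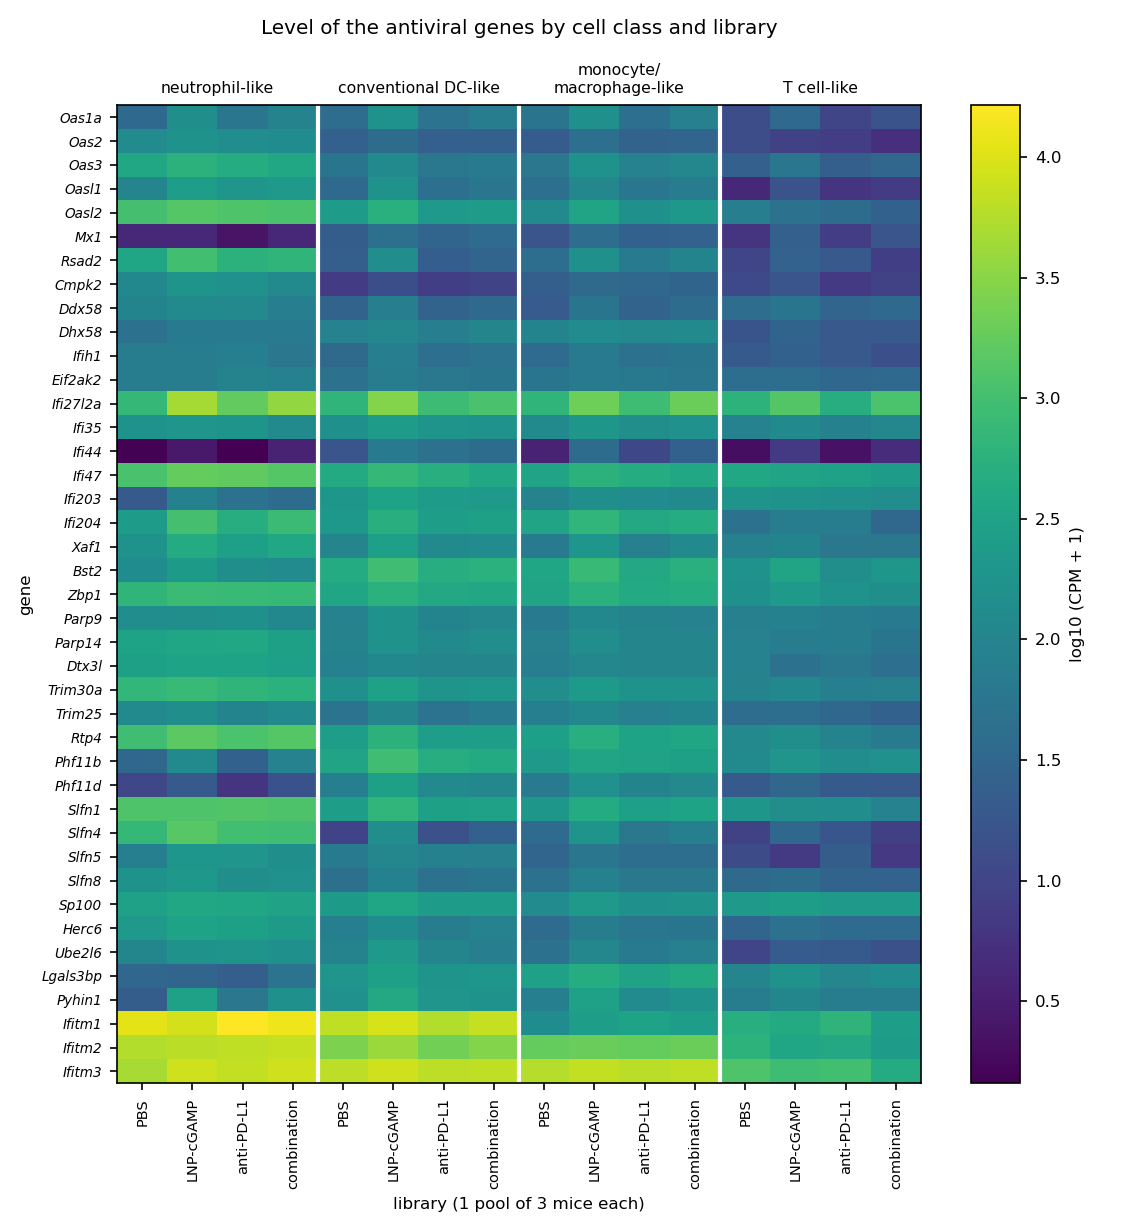
Level of the 41 antiviral genes found (rows) in the 4 cell classes and 4 libraries (columns), as log10 of CPM + 1 in colour. The rows of Ifitm1, Ifitm2 and Ifitm3 are bright in neutrophil-like cells at 4795 to 16400 CPM, and 30 of the 41 rows have their lowest mean in T cell-like cells.

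Shared members were those with at least 50 CPM in every class and library. There were 15 of 41, beside 14.6% of the 7148 genes. They were Ifi27l2a, Ifi35, Ifi47, Xaf1, Bst2, Zbp1, Parp9, Parp14, Trim30a, Rtp4, Slfn1, Sp100, Ifitm1, Ifitm2 and Ifitm3. Zbp1, a sensor of left-handed nucleic acid that can trigger cell death, held 641, 846, 774 and 764 CPM in neutrophil-like and 156, 214, 174 and 150 CPM in T cell-like cells. Sp100, a nuclear body protein, was lowest in monocyte/macrophage-like cells at 128, 224, 157 and 175 CPM, with 296, 391, 348 and 308 CPM in neutrophil-like, 232, 359, 241 and 245 in dendritic cell-like and 222, 271, 224 and 218 in T cell-like cells.

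A member was called concentrated in a class when its lowest level there was at least 4 times its highest level in every other class, and 1 member met this (5.61% of all genes did). It was Slfn4 (chr11:83175186-83190216, plus strand), a Schlafen protein of myeloid cells, with 726, 1429, 972 and 950 CPM in neutrophil-like cells. Monocyte/macrophage-like cells held 37.0, 180, 57.5 and 80.6 CPM and dendritic cell-like cells 8.45, 139, 13.6 and 24.9 CPM. Under LNP-cGAMP the gap narrowed, since the fold over PBS was 16.5 (95% interval 10.3 to 27.7) in dendritic cell-like, 4.86 (95% interval 4.62 to 5.11) in monocyte/macrophage-like and 1.97 (95% interval 1.85 to 2.09) in neutrophil-like cells. Some members showed the reverse pattern and were low in neutrophil-like cells. Ifi44, a cytosolic interferon-induced protein, was at 0.512, 1.76, 0.444 and 2.61 CPM there and at 16.1, 70.4, 45.3 and 38.5 CPM in dendritic cell-like cells. Monocyte/macrophage-like cells held 2.61, 37.8, 9.96 and 25.1 CPM of it, a mean of 18.9 CPM just under the limit. It is therefore not in the counts of that class, although the fold of LNP-cGAMP over PBS was 14.5 (95% interval 12.1 to 17.4). Mx1, an antiviral GTPase for which C57BL/6 mice carry a defective allele, was at 3.07, 3.17, 1.33 and 3.26 CPM in neutrophil-like cells, 16.1, 39.4, 24.9 and 26.3 in monocyte/macrophage-like and 21.7, 44.0, 29.4 and 36.9 in dendritic cell-like cells. Phf11d was at 9.72, 19.0, 4.89 and 14.3 CPM in neutrophil-like against 81.7, 286, 120 and 107 CPM in dendritic cell-like cells.

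LNP-cGAMP alone against PBS asks what LNP-cGAMP did without the antibody, and both pools were male by their cells. No library had nanoparticles without cGAMP, so the STING agonist and its carrier cannot be told apart. In monocyte/macrophage-like cells 32 of 40 measured members were higher with a median log2 ratio of 0.78, and 0 were lower. Over all 5400 measured genes 9.06% were higher and 6.96% lower, with a median of 0.07. Marker sums of other cells differed in this class too, with 611 and 1359 CPM of neutrophil, 9.91 and 51.1 of NK cell and 149 and 9.29 of erythroid markers in PBS and LNP-cGAMP, and its own markers were at 27083 and 19423 CPM; their part in the count was not tested. In conventional dendritic cell-like cells 34 of 40 were higher (all 5288 genes 8.96%) and 0 lower (8.81%), with a median of 0.90. Neutrophil-like cells had 17 of 38 higher (all 4023 genes 5.02%) and 0 lower (12.5%), with a median of 0.48. Neutrophil-like cells of LNP-cGAMP included 477 of cluster 8, led by Ngp and Camp, which held 8, 16 and 71 cells of the other libraries, and PBS neutrophil-like cells held 1605 CPM of erythroid markers against at most 8.11 elsewhere, whose part in these counts was not tested. The median of all genes there was -0.16, and scaling by TMM, a normalization that removes such a shift, gave 24 members instead of 17. Within cluster 0 alone, which every library filled, there were 25. The share of all genes is not set beside the 24 and the 25, so they are not read as a larger response of the members. T cell-like cells had 6 of 30 higher (all 5549 genes 5.73%) and 2 lower (5.21%), with a median of 0.27. The share of mitochondrially encoded UMIs differed as well, at 3.40% in PBS and 1.18% in LNP-cGAMP in monocyte/macrophage-like cells. Leaving these genes out of the total gave a count within 1.5 times of the one above.

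**Figure D2:**
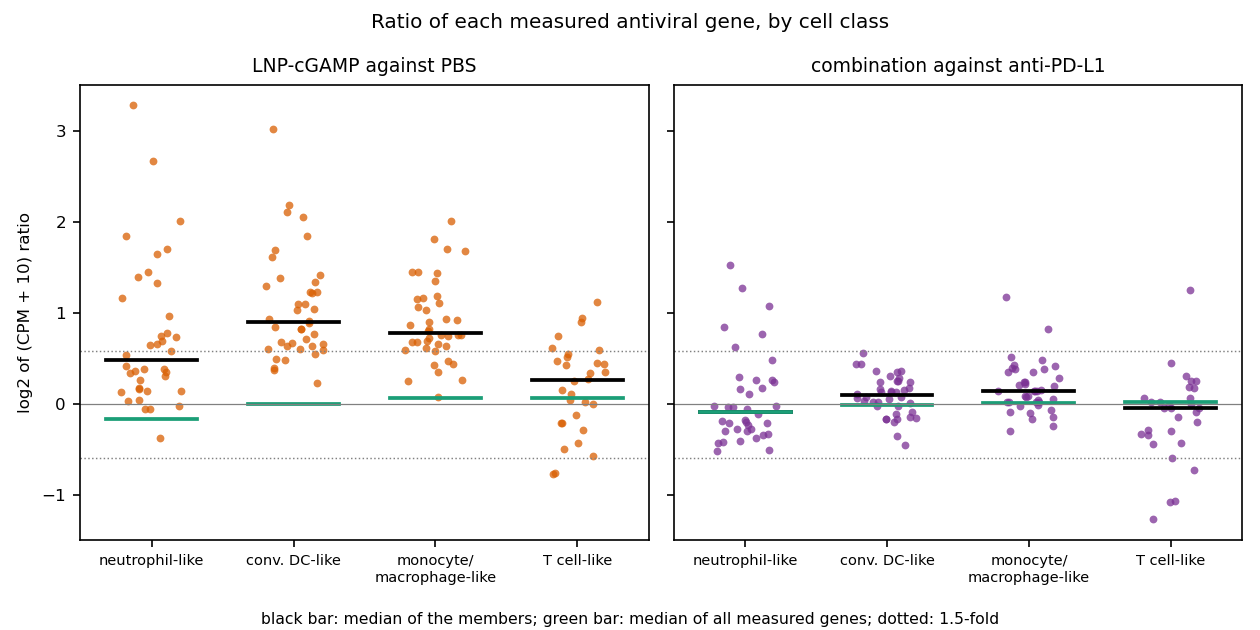
Log2 ratio of each measured member (points) in 4 cell classes, for LNP-cGAMP against PBS (left) and the combination against anti-PD-L1 (right), with the median of the members in black and of all measured genes in green. On the left the members' medians are 0.48, 0.90, 0.78 and 0.27 from left to right, on the right -0.08, 0.10, 0.15 and -0.04.

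The combination against anti-PD-L1 asks the same of LNP-cGAMP on top of the antibody and shares no library with the first comparison. There 2 of 40 members were higher in monocyte/macrophage-like cells (all genes 1.5%) and 0 lower (1.02%). Neutrophil-like cells had 6 of 38 higher (3.23%) and 0 lower (3.28%). In T cell-like cells 1 of 30 was higher (2.70%) and 5 were lower (5.64%). Dendritic cell-like cells had 0 higher (2.19%) and 0 lower (2.33%) of 40. Medians were 0.15, -0.08, -0.04 and 0.10 in the order of these classes. Thinning each cell to 1000 UMIs gave 10 members higher in dendritic cell-like cells instead of 0 and 6 in T cell-like cells instead of 1. It left 108 and 73 dendritic cell-like and 148 and 161 T cell-like cells at that depth, so single members rest on few UMIs. These counts are not set beside all genes and are not read as a response of the members. Both pools here mixed cells of male and female mice.

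Members higher in both of these comparisons were few. Monocyte/macrophage-like cells had 2, Oas1a and Ifi27l2a, where 1.33% of all genes were. Neutrophil-like cells had 5, Ifi27l2a, Phf11b, Pyhin1, Oas1a and Ifi204 (1.19%). T cell-like cells had 1, Ifi27l2a (1.12%), and dendritic cell-like cells had 0 (0.700%).

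Ifi27l2a (chr12:103442167-103443680, minus strand) encodes a small mitochondrial membrane protein of the ISG12 family and was the one member at least 2-fold apart in both comparisons in 3 classes. Neutrophil-like cells held 716, 4616, 1732 and 3666 CPM, so both libraries with LNP-cGAMP were above both without it. The folds were 6.45 (95% interval 6.10 to 6.82) for LNP-cGAMP over PBS and 2.12 (95% interval 2.03 to 2.20) for the combination over anti-PD-L1. Monocyte/macrophage-like cells held 645, 2120, 886 and 2015 CPM, and T cell-like cells 611, 1338, 479 and 1150 CPM, again with no overlap between libraries with and without the agonist. In dendritic cell-like cells the values were 655, 2853, 876 and 1130 CPM, and the fold of the combination over anti-PD-L1 was 1.29 (95% interval 1.20 to 1.38). The 32 to 101 NK cell-like cells of each library, a class too small to compare, held 39.2, 112, 229 and 156 CPM.

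Pyhin1 as named in the deposited table (Ensembl gene ENSMUSG00000043263, called Ifi209 in GENCODE M21; chr1:173630917-173647928, plus strand) belongs to the PYHIN family of interferon-induced nuclear proteins that bind DNA. It was at 21.5, 297, 57.7 and 154 CPM in neutrophil-like cells, a fold of 13.8 (95% interval 10.1 to 19.3) for LNP-cGAMP over PBS and 2.67 (95% interval 2.15 to 3.34) for the combination over anti-PD-L1. The 4 libraries lay far apart in that class, with anti-PD-L1 alone also above PBS at 2.69 (95% interval 1.88 to 3.90). In monocyte/macrophage-like cells it was at 80.0, 305, 129 and 177 CPM and in dendritic cell-like cells at 161, 411, 189 and 168 CPM. T cell-like cells varied little, at 74.1, 104, 71.0 and 75.2 CPM. Its neighbours on chromosome 1 are of the same family and close in sequence, so reads shared between copies are uncertain for all of them. Ifi204 (chr1:173747293-173766943, minus strand), known as a DNA sensor that signals to STING, held 249, 1031, 483 and 830 CPM in neutrophil-like cells and 341, 664, 399 and 473 CPM in monocyte/macrophage-like cells. T cell-like cells as a class ran the other way under the combination against anti-PD-L1, at 45.3, 70.8, 75.8 and 31.2 CPM. Their clusters differed in this. Cluster 13, with 97 and 52 cells, was at 158 CPM in anti-PD-L1 and lower in the combination. Cluster 10 was not lower, at 28.4 CPM in anti-PD-L1 and 32.6 CPM in the combination. After thinning to 1000 UMIs, 2.03% of T cell-like cells of anti-PD-L1 and 2.48% of the combination held a UMI of Ifi204. Ifi203 was at 19.4, 85.3, 48.4 and 37.8 CPM in neutrophil-like cells and thus lowest in PBS, but at 180, 165, 153 and 138 CPM in T cell-like cells.

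Phf11b (chr14:59320964-59341351) and Phf11d (chr14:59347407-59365470), both on the minus strand, are neighbouring genes of a family with a zinc-binding PHD finger. Phf11b in neutrophil-like cells was at 31.7, 121, 24.9 and 90.6 CPM, with both agonist libraries above both others. Its folds there were 3.82 (95% interval 2.91 to 5.10) and 3.64 (95% interval 2.65 to 5.06) in the 2 comparisons that share no library. Dendritic cell-like cells showed another order, 340, 927, 482 and 436 CPM, in which LNP-cGAMP stood alone. The same held for Phf11d in that class. Monocyte/macrophage-like cells held 222, 341, 309 and 289 CPM of Phf11b and 66.4, 164, 96.7 and 114 CPM of Phf11d, and T cell-like cells 120, 190, 139 and 159 and 19.5, 30.9, 19.3 and 18.5 CPM.

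**Figure D3:**
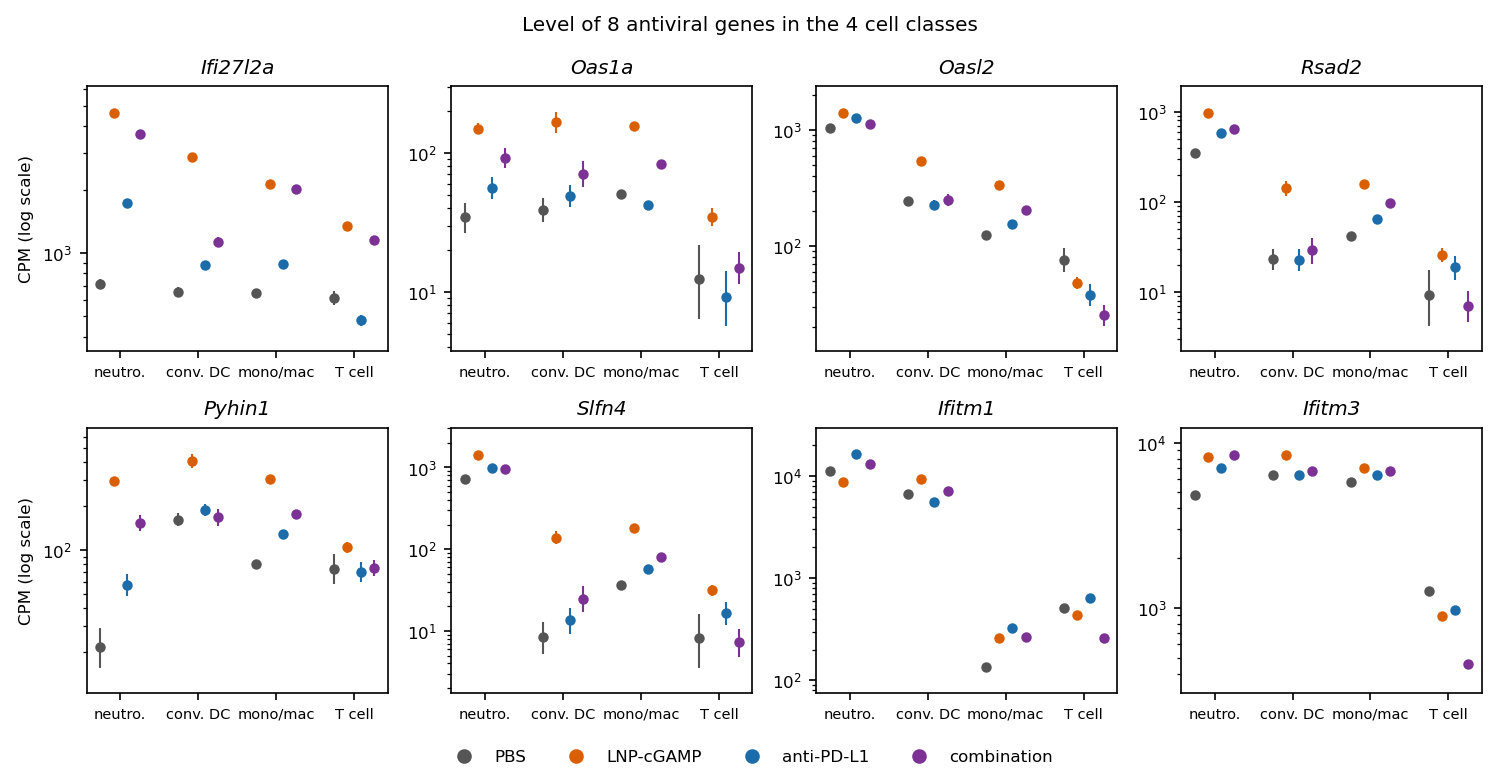
CPM on a log scale of 8 members in neutrophil-like, conventional dendritic cell-like, monocyte/macrophage-like and T cell-like cells, 1 point per library with its exact 95% counting interval. Ifi27l2a in T cell-like cells is at 1338 and 1150 CPM with LNP-cGAMP and at 611 and 479 CPM without, whereas Oasl2 there is highest in PBS at 76.1 CPM.

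The OAS proteins make short oligoadenylates that activate RNase L, which then degrades RNA; the OAS-like proteins Oasl1 and Oasl2 are relatives, and Oasl1 is known to restrain translation of Irf7. Their genes lie in 2 stretches of chromosome 5, with Oas2, Oas3 and Oas1a (chr5:120730333-120749853, chr5:120753098-120777661 and chr5:120896256-120907521, minus strand) in one and Oasl2 and Oasl1 (chr5:114896936-114912234 and chr5:114923240-114937915, plus strand) in the other. Oas1a was of the same order in the myeloid classes, with 50.6, 156, 42.2 and 83.1 CPM in monocyte/macrophage-like, 34.3, 149, 56.0 and 91.9 in neutrophil-like and 39.0, 167, 49.2 and 70.6 in dendritic cell-like cells. Its fold under LNP-cGAMP was 3.08 (95% interval 2.94 to 3.22), 4.36 (95% interval 3.36 to 5.73) and 4.28 (95% interval 3.27 to 5.62). Oas2 and Oas3 differed from it in being far above other classes in neutrophil-like cells whatever the treatment. Oas2 held 131, 172, 138 and 136 CPM there, 21.2, 42.9, 26.9 and 29.3 in monocyte/macrophage-like and 24.5, 38.9, 24.6 and 24.1 in dendritic cell-like cells. Oas3 held 386, 584, 469 and 383 CPM in neutrophil-like, 57.0, 173, 89.4 and 108 in monocyte/macrophage-like, 53.9, 122, 60.2 and 68.2 in dendritic cell-like and 24.7, 54.8, 23.7 and 30.4 in T cell-like cells. In neutrophil-like cells its log2 ratio under LNP-cGAMP was 0.58, just under the 1.5-fold line, and in monocyte/macrophage-like cells 1.45.

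Oasl1 was at 102, 273, 184 and 224 CPM in neutrophil-like, 42.5, 107, 55.3 and 73.2 in monocyte/macrophage-like and 34.2, 173, 43.5 and 55.3 in dendritic cell-like cells. Every one of these classes had its lowest level in PBS and its highest in LNP-cGAMP. Oasl2 was at 1035, 1393, 1271 and 1120 CPM in neutrophil-like cells, where the libraries stayed within 1.5-fold of each other, and at 125, 335, 155 and 206 CPM in monocyte/macrophage-like and 245, 536, 228 and 250 in dendritic cell-like cells. T cell-like cells held 76.1, 48.2, 38.1 and 25.5 CPM, highest in PBS. The combination over PBS was therefore at a log2 ratio of 0.68 in monocyte/macrophage-like and -1.28 in T cell-like cells.

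The 3 RIG-I-like receptors are helicases that bind viral RNA in the cytosol: Ddx58 (RIG-I) and Ifih1 (MDA5) signal, and Dhx58 (LGP2) modulates them. Ddx58 (chr4:40203773-40239828, minus strand) was at 20.3, 53.5, 27.6 and 38.0 CPM in monocyte/macrophage-like and 27.4, 77.9, 26.8 and 33.7 CPM in dendritic cell-like cells, more than 2-fold above PBS in LNP-cGAMP in both. In neutrophil-like cells it was at 96.7, 125, 114 and 77.5 CPM and in T cell-like cells at 39.1, 52.5, 28.9 and 34.2 CPM. Ifih1 (chr2:62595798-62646255, minus strand) was at 36.6, 68.6, 45.2 and 53.3 CPM in monocyte/macrophage-like, 35.8, 77.9, 43.5 and 48.9 in dendritic cell-like and 72.6, 75.1, 81.3 and 58.6 in neutrophil-like cells, the last with a log2 ratio of 0.04 under LNP-cGAMP. Dhx58 (chr11:100694884-100704271, minus strand) differed least of these receptors in the first 2 classes, at 98.3, 128, 118 and 121 CPM in monocyte/macrophage-like, 90.9, 108, 78.7 and 100 in dendritic cell-like, 48.6, 64.9, 68.4 and 67.1 in neutrophil-like and 15.4, 28.6, 18.8 and 18.7 in T cell-like cells. The RNA-activated kinase gene Eif2ak2 (PKR), which halts translation, was at 54.4, 67.2, 62.0 and 55.5 CPM in monocyte/macrophage-like and 73.7, 70.9, 91.5 and 88.0 CPM in neutrophil-like cells and stayed under a 1.5-fold log2 ratio under LNP-cGAMP in all 4 classes.

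Rsad2 (chr12:26442746-26456452, minus strand) encodes viperin, which makes a chain-terminating nucleotide that stalls viral polymerases, and Cmpk2 (chr12:26469204-26479837, plus strand), its neighbour, supplies nucleotides for it. Rsad2 held 346, 962, 574 and 648 CPM in neutrophil-like, 41.9, 156, 63.9 and 96.0 in monocyte/macrophage-like and 23.3, 141, 22.9 and 28.9 in dendritic cell-like cells. The fold of LNP-cGAMP over PBS was 2.78 (95% interval 2.55 to 3.03), 3.72 (95% interval 3.54 to 3.90) and 6.03 (95% interval 4.35 to 8.43) in that order. Dendritic cell-like cells of the other libraries lay between 22.9 and 28.9 CPM, so LNP-cGAMP alone stood apart there. Cmpk2 was at 111, 180, 164 and 124 CPM in neutrophil-like and 23.1, 36.0, 33.3 and 28.7 CPM in monocyte/macrophage-like cells, with log2 ratios of 0.65 and 0.47 under LNP-cGAMP, against 1.45 and 1.68 for Rsad2. Bst2, tetherin, which holds budding virions at the cell surface, was at 365, 800, 406 and 536 CPM in monocyte/macrophage-like, 447, 920, 487 and 554 in dendritic cell-like, 171, 339, 144 and 201 in T cell-like and 134, 232, 152 and 128 in neutrophil-like cells. In all 4 classes LNP-cGAMP was its highest library.

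The IFITM proteins sit in cell membranes and hinder the fusion of entering virions. Ifitm2, Ifitm1 and Ifitm3 are neighbours on chromosome 7 (chr7:140954837-140955987, chr7:140967221-140969825 and chr7:141009586-141010770), close in sequence. They made up much of the summed level of the members: in the PBS library neutrophil-like cells held 11337 CPM of Ifitm1, 5640 of Ifitm2 and 4795 of Ifitm3, out of 32896. Ifitm1 separated the classes more than it did the treatments, with 11337, 8748, 16400 and 13090 CPM in neutrophil-like, 6645, 9265, 5573 and 7121 in dendritic cell-like, 510, 441, 636 and 259 in T cell-like and 136, 258, 328 and 267 in monocyte/macrophage-like cells. Anti-PD-L1 had the highest level in 3 of these 4 classes, and its fold over PBS in monocyte/macrophage-like cells was 2.41 (95% interval 2.34 to 2.47). In that class and library Ifitm1 was at 387 CPM in female-called and 188 CPM in male-called cells, beside 120 CPM in male-called cells of PBS. Its level differed between the clusters of that class: cluster 3, led by Vcan and Ccr2, was at 1024 CPM in PBS and 1639 in anti-PD-L1 and held 272 and 532 cells, while cluster 2 was at 41.8 and 80.1.

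Ifitm3 was at 4795, 8247, 7064 and 8364 CPM in neutrophil-like cells and lowest in PBS there, and at 5804, 7004, 6343 and 6735 CPM in monocyte/macrophage-like and 6357, 8374, 6403 and 6716 in dendritic cell-like cells, whose libraries stayed within 1.5-fold. Ifitm2 was at 5640, 6327, 6784 and 7301 CPM in neutrophil-like, 1828, 1930, 1812 and 2003 in monocyte/macrophage-like and 2638, 4029, 2250 and 2882 in dendritic cell-like cells. T cell-like cells behaved in another way for both: Ifitm3 was at 1267, 896, 966 and 456 and Ifitm2 at 593, 348, 409 and 245 CPM, highest in PBS and lowest in the combination. After thinning each cell to 1000 UMIs the log2 ratio of Ifitm2 was 0.07 for LNP-cGAMP and 0.16 for the combination over PBS.

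The T cell-like class of the PBS library held more dendritic cell, monocyte/macrophage and neutrophil marker RNA than the rest. Summed over 11 dendritic cell markers it was at 4884, 690, 1888 and 712 CPM, over 16 monocyte/macrophage markers at 3012, 2872, 2486 and 1829 CPM and over 12 neutrophil markers at 602, 488, 494 and 147 CPM. These lists were lowest or near lowest in the combination, as were Ifitm1, Ifitm2, Ifitm3, Oasl2, Slfn1 and Rtp4 in T cell-like cells, and their part in those levels was not tested. The class also held different clusters: cluster 10 had 158, 51 and 109 T cell-like cells in LNP-cGAMP, anti-PD-L1 and combination and under 20 in PBS, and cluster 13 had 65, 83, 97 and 52. In cluster 13 alone Oasl2 was at 116, 145, 77.6 and 72.6 CPM and Ifitm3 at 1446, 1557, 1751 and 343 CPM. Within that cluster 11 members were higher in LNP-cGAMP than in PBS, instead of 6 over the class. The 11 rest on 83 and 65 cells and have no share of all genes beside them, so they are not read as a response.

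Schlafen proteins bind or cleave RNA and restrain cell growth, and the 4 listed genes lie together on chromosome 11. Slfn1 (chr11:83116849-83122670, plus strand) was at 1271, 1231, 1316 and 1222 CPM in neutrophil-like cells, where the 4 libraries lay within 1.5-fold, and at 199, 455, 275 and 322 in monocyte/macrophage-like and 260, 675, 294 and 302 in dendritic cell-like cells. T cell-like cells were at 200, 145, 139 and 89.4 CPM, lowest in the combination. Slfn5 (chr11:82951349-82964840, plus strand) was at 81.3, 195, 186 and 152 CPM in neutrophil-like cells, so that the 3 treated libraries were all above PBS, and at 28.9, 54.5, 40.8 and 41.6 and 66.8, 106, 87.9 and 82.6 CPM in monocyte/macrophage-like and dendritic cell-like cells. Slfn8 (chr11:83002158-83020810, minus strand) was at 165, 206, 143 and 164 CPM in neutrophil-like, 45.7, 86.9, 59.0 and 60.6 in monocyte/macrophage-like, 44.7, 86.7, 47.5 and 52.9 in dendritic cell-like and 35.0, 38.6, 27.2 and 26.1 in T cell-like cells. Within this family Slfn4 had the highest log2 ratio under LNP-cGAMP in monocyte/macrophage-like and dendritic cell-like cells (2.01 and 3.02) and Slfn5 in neutrophil-like cells (1.17).

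The remaining members belong mostly to ubiquitin-like conjugation, ADP-ribosylation and other functions. Herc6 and Ube2l6, the ligase and the conjugating enzyme of ISG15, were 1.5-fold or more above PBS under LNP-cGAMP in both monocyte/macrophage-like and dendritic cell-like cells, at log2 ratios of 0.82 and 0.66 for Herc6 and 1.03 and 1.22 for Ube2l6. Parp9 and its partner ubiquitin ligase Dtx3l were at 0.58 and 0.43 in monocyte/macrophage-like cells, under the log2 line of a 1.5-fold change (the plain fold of Parp9 was 1.56), and Parp14 was at 0.68, above it. Of the TRIM ubiquitin ligases, Trim30a was at 0.66 and 0.89 and Trim25, which acts on RIG-I, at 0.44 and 0.91 in the same 2 classes. Xaf1, a promoter of apoptosis, was at 64.0, 191, 83.2 and 120 CPM in monocyte/macrophage-like and 167, 457, 275 and 388 CPM in neutrophil-like cells. Rtp4, a zinc-finger protein that binds viral RNA, was at 936, 1574, 1145 and 1409 CPM in neutrophil-like, 265, 579, 269 and 270 in dendritic cell-like and 117, 151, 91.6 and 70.1 in T cell-like cells. Lgals3bp, a secreted glycoprotein that binds galectins, was at 305, 474, 316 and 420 CPM in monocyte/macrophage-like cells, above every other class in all libraries. In neutrophil-like cells it was at 30.2, 29.6, 23.1 and 49.5 CPM and the 1 member there that was higher in the combination than in LNP-cGAMP. Ifi35 and the GTPase gene Ifi47 were at log2 ratios of 0.69 and 0.76 in monocyte/macrophage-like cells under LNP-cGAMP.

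Anti-PD-L1 against PBS shares the PBS library with the first comparison, and the anti-PD-L1 pool held female mice. In monocyte/macrophage-like cells 2 of 40 members, Ifitm1 and Pyhin1, were higher (all genes 1.41%) and 0 were lower (0.537%). In neutrophil-like cells 9 of 38 were higher (2.44%) and 0 lower (9.74%). The 5 with the largest log2 ratios were Ifi27l2a at 1.26, Pyhin1 at 1.11, Slfn5 at 1.10, Ifi203 at 0.99 and Ifi204 at 0.93. T cell-like cells had 1 higher (1.98%), Ifi204, and 1 lower (2.04%), Oasl2, of 30. Dendritic cell-like cells had 1 higher (1.13%), Ifi44, and 0 lower (1.12%) of 40. In male-called cells alone, which set mice of 1 sex side by side, 1 of 38 was higher in neutrophil-like cells (all genes 6.54%) instead of 9. There 4 were lower, beside 19.0% of all genes, and anti-PD-L1 gave only 78 male-called cells. Of its neutrophil-like cells 720 had no call, as had 639 of PBS. Over all neutrophil-like cells TMM scaling gave 17 higher, a count without the share of all genes beside it.

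The combination against LNP-cGAMP asks what the antibody added to LNP-cGAMP and shares a library with each of the first 2 comparisons. The LNP-cGAMP pool was male by its cells and the combination pool mostly female, so sex, mouse and antibody cannot be told apart. In dendritic cell-like cells LNP-cGAMP had 44 male-called and 0 female-called cells, the combination 7 and 48. Monocyte/macrophage-like cells had 7 of 40 members lower (all genes 1.83%) and 0 higher (3.00%), the largest gaps being Slfn4 at -1.07, Oas1a at -0.83, Pyhin1 at -0.75, Oasl2 at -0.67 and Rsad2 at -0.65. Dendritic cell-like cells had 22 of 40 lower (6.79%) and 0 higher (6.71%), with a median of -0.62. There Slfn4 was at -2.10, Rsad2 at -1.95, Oasl1 at -1.49, Ube2l6 at -1.43 and Phf11d at -1.35, and Ube2l6 held 92.1, 227, 102 and 77.8 CPM. Neutrophil-like cells had 6 of 38 lower (4.97%) and 1 higher (1.59%), among them Ifi203 at -1.0, Pyhin1 at -0.90, Bst2 at -0.81, Oas1a at -0.65 and Ddx58 at -0.62. T cell-like cells had 9 of 30 lower (2.07%) and 0 higher (0.342%), led by Rtp4 at -1.01, Ifi204 at -0.97, Ifitm3 at -0.96, Ifitm1 at -0.74 and Bst2 at -0.73. Ifi27l2a stayed within 1.5-fold in 3 classes, at -0.07, -0.33 and -0.22, and was at -1.33 in dendritic cell-like cells. With coarser clusters 28 members were lower in neutrophil-like cells instead of 6. That class then held 1115 and 713 cells of LNP-cGAMP and the combination instead of 1082 and 590, so it took in other cells unequally. In male-called cells alone, 2020 and 452 cells, 32 were lower in monocyte/macrophage-like cells instead of 7. The share of all genes is not set beside these counts.

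Against PBS, whose library also serves 2 other comparisons, the combination had 14 of 40 members higher in monocyte/macrophage-like cells (all genes 3.43%) and 0 lower (1.57%). The PBS pool was male by its cells and the combination pool mixed cells of male and female mice. In neutrophil-like cells 12 were higher (3.68%) and 0 lower (17%). With TMM scaling 19 were higher, a count without the share of all genes beside it. In male-called monocyte/macrophage-like cells 5 were higher (5.74%) instead of 14, and 4 were lower (7.65%). In T cell-like cells 1 was higher (5.08%) and 9 were lower (7.91%), and in dendritic cell-like cells 4 were higher (2.53%) and 0 lower (2.31%). In 5 members the ratios were at least 1.5-fold in opposite directions between classes: Oasl2, Slfn1 and Ifitm1 were higher in monocyte/macrophage-like cells, and Rtp4 and Ifitm3 in neutrophil-like cells, while all 5 were lower in T cell-like cells.

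Single cells were set side by side after each was thinned to 1000 UMIs, and the UMIs of all members in a cell were added. The median was 13, 19, 15 and 17 in monocyte/macrophage-like, 31, 44, 44 and 44 in neutrophil-like, 5, 5, 4 and 4 in T cell-like and 20, 32, 24 and 23 in dendritic cell-like cells. The 10th percentile of monocyte/macrophage-like cells was 7 in PBS and 12 in LNP-cGAMP, so the difference was present among the cells with few UMIs of members as well. Thinning left out 2 monocyte/macrophage-like cells of LNP-cGAMP and 11, 4, 3 and 0 neutrophil-like cells.

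Monocyte/macrophage-like cells were made of 8 clusters that the libraries filled unequally, so class levels mix clusters. In cluster 3, which held 272, 176, 532 and 288 cells, Oasl2 was at 266, 484, 288 and 358 CPM and Ifi27l2a at 1167, 4312, 1583 and 3670 CPM. In that cluster both agonist libraries were above both others. In clusters 2, 6 and 14 the combination was above anti-PD-L1 for Ifi27l2a, whereas for Oasl2 it was below anti-PD-L1 in clusters 2 and 14 and slightly above it in cluster 6. Cluster 2 held 116, 135 and 132 CPM of Oasl2 in PBS, anti-PD-L1 and the combination, and 623, 792 and 1187 CPM of Ifi27l2a. Cluster 6 held 110, 126 and 133 CPM of Oasl2 in the same libraries, and 582, 708 and 1354 CPM of Ifi27l2a. In cluster 14 Oasl2 was at 86.1, 277, 143 and 130 CPM, with the combination below anti-PD-L1, and Ifi27l2a at 384, 1491, 798 and 1374 CPM. Clusters 1 and 11 held cells almost only of LNP-cGAMP (867 and 150) and the combination (729 and 176). Their Oasl2 was alike in both, 383 and 333 CPM in cluster 1 and 356 and 312 CPM in cluster 11.

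Clusters 5 and 9 also held cells of LNP-cGAMP (698 and 352) and the combination (319 and 184), and there the libraries differed. Oasl2 was at 303 against 120 CPM in cluster 5 and 230 against 106 CPM in cluster 9, and Oas1a at 128 against 40.6 and 93.4 against 40.5. The combination's values are near those of PBS in cluster 2, led by Fcna and Lyve1 (Oasl2 116 CPM, Oas1a 48.5 CPM). They are below those of PBS in cluster 3 (266 and 67.8 CPM). PBS had 0 cells in cluster 5 and 11 in cluster 9, so these clusters have no untreated level of their own. Ifi27l2a differed less in cluster 5, at 1539 against 1106 CPM, and ran the other way in cluster 9, at 1922 against 3000 CPM. In PBS it was at 623 CPM in cluster 2 and 1167 CPM in cluster 3.

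**Figure D4:**
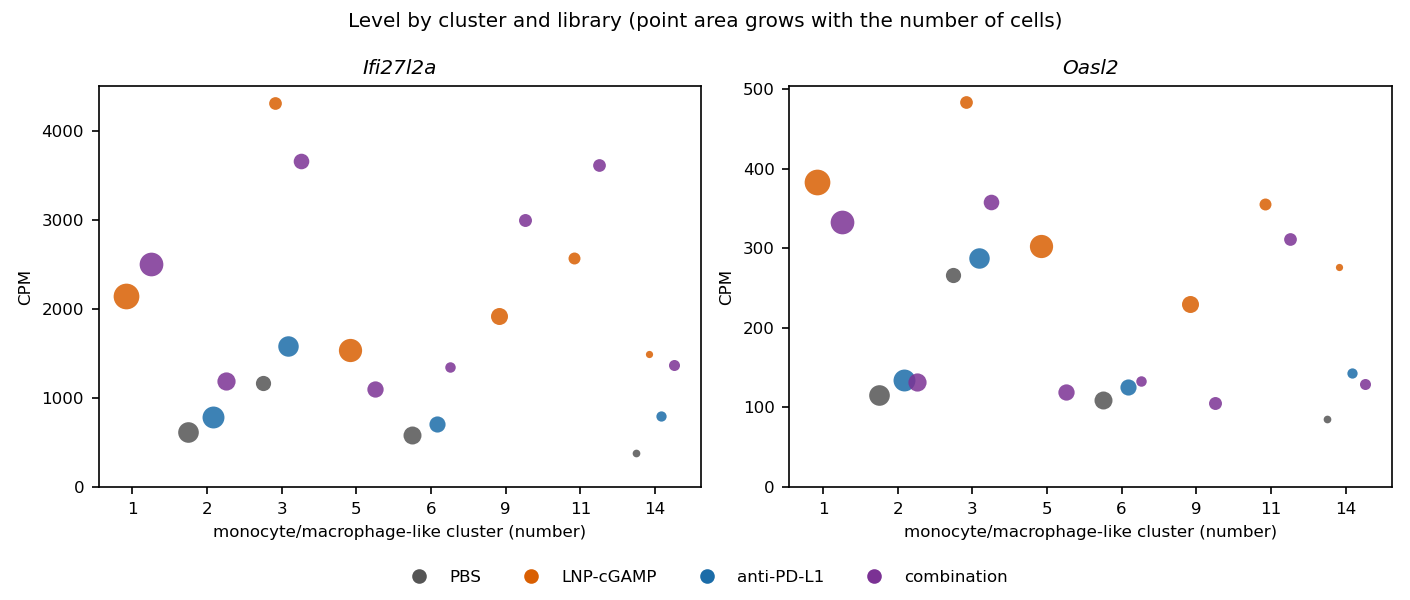
CPM of Ifi27l2a (left) and Oasl2 (right) in each monocyte/macrophage-like cluster, 1 point per library with at least 20 cells in it, with larger points for more cells. In clusters 5 and 9 the combination lies at 120 and 106 CPM of Oasl2, below LNP-cGAMP at 303 and 230, while in clusters 1 and 11 both lie between 312 and 383.

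These clusters followed the sex calls of the combination. Its male-called monocyte/macrophage-like cells fell into clusters 5 (239 cells), 9 (139) and 14 (61), and its female-called cells into clusters 1 (486), 2 (378), 3 (212), 11 (113), 6 (94) and 14 (30). In LNP-cGAMP, whose pool was male by its cells, male-called cells filled clusters 1 (740) and 3 (154) as well as 5 (645) and 9 (323). So the combination's cells came from mice that differed from each other, and sex cannot be told apart from the single mouse, since a pool of 3 mice holds 1 or 2 of each sex.

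In the 452 male-called monocyte/macrophage-like cells of the combination most members were within 1.5-fold of male-called cells of PBS. Of 40 members 5 were higher (all genes 5.74%) and 4 lower (7.65%), with a median log2 ratio of -0.15. Oasl2 was at 111 CPM in the male-called and 213 CPM in the 1327 female-called cells of the combination, with 123 CPM in male-called cells of PBS and 331 of LNP-cGAMP. Rsad2 was at 31.6 and 105 CPM, beside 42.4 in PBS and 155 in LNP-cGAMP, and Mx1 at 5.94 and 29.2 CPM, beside 16 and 38.0. Female-called cells of the combination were higher than its male-called cells for 22 of 40 members (all genes 6.96%). They were lower for 1 (3.63%), Ifitm2, at 1836 against 2842 CPM. Ifi27l2a was not among these members, at 1866 CPM in female-called and 1971 CPM in male-called cells.

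The comparison of the combination with anti-PD-L1 thus gave other counts by sex call. In male-called cells 4 of 40 members were higher (all genes 5.11%) and 10 lower (8.19%), with a median of -0.40. In female-called cells 3 were higher (1.15%), with a median of 0.13. Rsad2 went apart, with a log2 ratio of -0.81 in male-called and 0.65 in female-called cells.

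**Figure D5:**
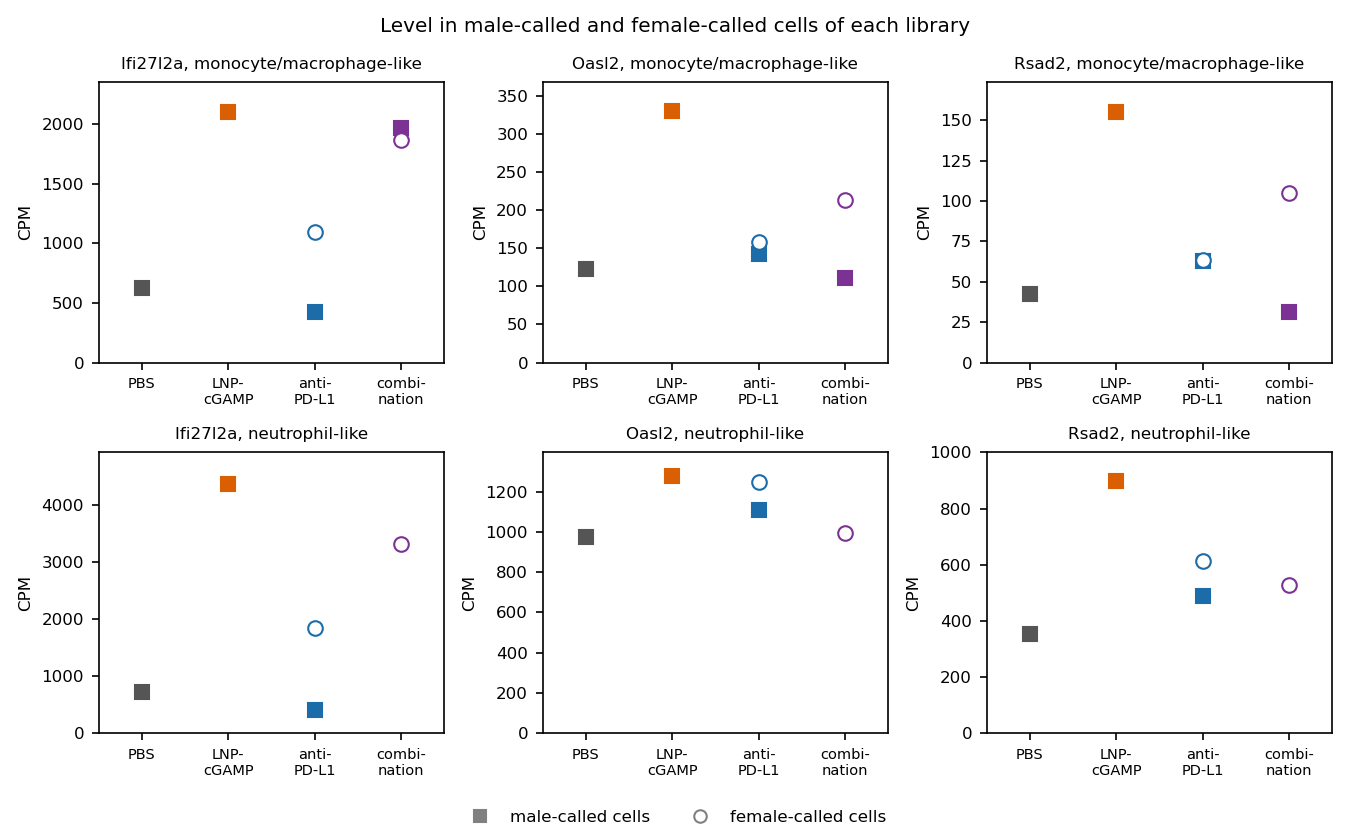
CPM of Ifi27l2a, Oasl2 and Rsad2 in male-called (filled squares) and female-called (open circles) cells of each library, for monocyte/macrophage-like (top) and neutrophil-like cells (bottom), shown where at least 20 cells had the call. In monocyte/macrophage-like cells of the combination Oasl2 is at 111 CPM in male-called and 213 CPM in female-called cells, while Ifi27l2a is at 1971 and 1866 CPM.

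Within the anti-PD-L1 library the split was of another kind. Female-called monocyte/macrophage-like cells were higher for 3 of 40 members (all genes 1.20%), while the median was 0.10. Ifi27l2a was one of them, at 1099 CPM in 980 female-called and 423 CPM in 466 male-called cells. It was higher in the female-called cells of the other classes too, at 1849 against 407 CPM in neutrophil-like, 562 against 142 in T cell-like (78 and 28 cells) and 1027 against 629 in dendritic cell-like cells (72 and 29 cells). Male-called cells of PBS were at 622 CPM in monocyte/macrophage-like and 715 CPM in neutrophil-like cells, above the male-called cells of anti-PD-L1. In neutrophil-like cells 9 of 38 members were higher in the 122 female-called than in the 78 male-called cells (all genes 11.2%). The other 720 neutrophil-like cells of that library had no call. Ifi204 there was at 608 against 206 CPM. The part of sex and of the single mouse in these values cannot be told apart.

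Beside the members, a list of 19 genes of the interferon pathway was counted (among them the interferon receptors and their kinases, interferon regulatory factors, cGAS, STING and feedback genes). Under LNP-cGAMP against PBS 9 of 17 measured were higher in monocyte/macrophage-like cells (all genes 9.06%), 7 of 17 in dendritic cell-like (8.96%), 3 of 13 in neutrophil-like (5.02%) and 2 of 15 in T cell-like cells (5.73%), and 0 were lower in each (6.96, 8.81, 12.5 and 5.21% of all genes). Their medians were 0.59, 0.44, 0.04 and -0.10 in the same order of classes. In the combination against anti-PD-L1 the counts of higher genes were 1, 0, 0 and 0, beside 1.5, 2.19, 3.23 and 2.70% of all genes. The counts of lower genes were 1, 0, 1 and 2, beside 1.02, 2.33, 3.28 and 5.64% of all genes.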

How the data were processed

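The authors deposited 1 matrix of raw UMI counts per library, whose headers name Cell Ranger 3.0.2; mm10 is the build per the submitters' processing notes. The members and gene lists were chosen with earlier results of these data known. Barcodes with at least 895 to 1009 UMIs (the lowest point of each library's density) and 200 genes were kept, and cells above 10% mitochondrially encoded UMIs were left out. No doublet caller was run. Cells were clustered with scanpy 1.11.5 (2000 variable genes without the members or other interferon genes, 30 components, 15 neighbours, Leiden resolution 1) and clusters named from marker lists. Deposited counts were summed per class and library and divided by the class total to give CPM. Intervals are exact Poisson and binomial ones from scipy 1.17.1. TMM factors came from edgeR 4.0.16, and no count model was fitted. Members given in full were those 2-fold apart in both comparisons without a shared library, opposite between classes, concentrated in a class, among the 5 largest of a class when anti-PD-L1 was compared with PBS or the combination with LNP-cGAMP, or in a small family. Scripts were tested on simulated data. The sources name 2 versions of the droplet kit. Gene coordinates are those of GENCODE M21 (GRCm38). From the list of pathway genes 1 gene is not reported here.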

Additional observations from a re-analysis of the deposited data

Results flagged for a closer look

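Several members had ratios of at least 1.5-fold in opposite directions in 2 cell classes under 1 comparison; the difference between the classes was not tested. Under LNP-cGAMP against PBS, Ifitm2 had a log2 ratio of 0.61 in conventional dendritic cell-like and -0.75 in T cell-like cells. Under the combination against anti-PD-L1, Ifi204 was at 0.77 in neutrophil-like and -1.06 in T cell-like cells. In T cell-like cells it was lower in cluster 13 but not in cluster 10, at 28.4 CPM in anti-PD-L1 and 32.6 CPM in the combination.

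Under the combination against PBS, T cell-like cells were the low side each time. Oasl2 was at 0.68 in monocyte/macrophage-like and -1.28 in T cell-like cells, Slfn1 at 0.67 and -1.08, and Ifitm1 at 0.92 and -0.95. Rtp4 was at 0.59 in neutrophil-like and -0.67 in T cell-like cells, and Ifitm3 at 0.80 and -1.46.

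Rsad2 under the combination against anti-PD-L1 was at 0.65 in female-called and -0.81 in male-called monocyte/macrophage-like cells. That difference was not tested either, and sex, mouse and pool cannot be told apart in it.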

How the results depend on the processing

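No paired analysis was possible because each treatment was 1 library. Of 19 alternatives 16 were fixed at the start; counting cluster 4 as monocyte/macrophage-like, leaving out shared barcodes and using female-called cells alone were chosen after seeing the data. Over 20 counts of members, 276 values under alternatives stayed within 1.5 times and 79 did not. Over 204 ratios of at least 1.5-fold, 2973 of 3610 values moved by less than their counting interval, 606 moved further and 31 changed sign. Alternatives that change only the filter on low values leave every ratio as it was. Counting cluster 4 as monocyte/macrophage-like leaves the other classes as they were. Part of the 2973 and of the 276 was thus fixed by construction, and these totals do not measure how stable the results are. T cell-like and dendritic cell-like cells of the smallest libraries (82 and 55 cells) limit what these counts can show. Male-called cells could not be used for the combination in neutrophil-like, T cell-like and dendritic cell-like cells (6 to 7 cells), nor female-called cells for comparisons with PBS or LNP-cGAMP (0 or 1 cell). Except where noted for construction, the cause of each change below was not tested. The counts below are given without the share of all genes, so they show only how a count depends on the setting.

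In monocyte/macrophage-like cells the 32 members higher in LNP-cGAMP than PBS became 19 with a pseudocount of 50 CPM and 20 with a mean of at least 100 CPM, which tests fewer genes. The 2 higher in the combination than anti-PD-L1 became 1 under both of these, 4 after thinning, with marker-gated classes and in male-called cells, and 7 within 1 cluster. The 2 higher in anti-PD-L1 than PBS became 1 with a pseudocount of 50 CPM, at resolution 2 and in male-called cells, 4 with cells weighted the same, 5 within 1 cluster, and 6 after thinning and with a pseudocount of 1 CPM. The 7 lower in the combination than LNP-cGAMP became 3 with cells weighted the same, 4 with a pseudocount of 50 CPM, a mean of at least 100 CPM or thinning, and 32 in male-called cells. The 14 higher in the combination than PBS became 5 with a pseudocount of 50 CPM, 8 with a mean of at least 100 CPM and 5 in male-called cells.

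In neutrophil-like cells the 6 higher in the combination than anti-PD-L1 became 3 with a mean of at least 100 CPM and in female-called cells. The 9 higher in anti-PD-L1 than PBS became 17 with TMM and 1 in male-called cells, and the 12 higher in the combination than PBS became 19 with TMM. The 6 lower in the combination than LNP-cGAMP became 3 with a pseudocount of 50 CPM, 10 with cells weighted the same, 12 after thinning, 14 within 1 cluster and 28 at resolution 0.5. At that resolution the class held 713 cells of the combination instead of 590.

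In T cell-like cells the 6 higher in LNP-cGAMP than PBS became 3 with a pseudocount of 50 CPM, 10 with marker-gated classes, 11 at resolution 0.5 and within 1 cluster, and 12 with a mean of at least 5 CPM or no filter. The 1 higher in the combination than anti-PD-L1 became 6 after thinning and 2 with a mean of at least 5 CPM or no filter. The 1 higher in anti-PD-L1 than PBS became 0 with a pseudocount of 50 CPM, a mean of at least 100 CPM, free RNA subtracted or male-called cells, 2 with marker-gated classes, thinning, equal weights, a mean of at least 5 CPM or no filter, and 6 within 1 cluster. The 9 lower in the combination than LNP-cGAMP became 4 with a pseudocount of 50 CPM, 5 with a mean of at least 100 CPM and 19 within 1 cluster. The 1 higher in the combination than PBS became 6 with marker-gated classes, 3 after thinning and with equal weights, and 2 with a mean of at least 5 CPM, no filter or within 1 cluster.

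In conventional dendritic cell-like cells the 34 higher in LNP-cGAMP than PBS became 21 with a mean of at least 100 CPM, and the 22 lower in the combination than LNP-cGAMP became 14. The 0 higher in the combination than anti-PD-L1 became 10 after thinning, 2 with marker-gated classes and with a minimum of 500 UMIs, and 1 with a pseudocount of 1 CPM, equal weights or free RNA subtracted. The 1 higher in anti-PD-L1 than PBS became 0 with a pseudocount of 50 CPM or a mean of at least 100 CPM, 2 with a pseudocount of 1 CPM and in male-called cells, 3 with marker-gated classes and 6 after thinning. The 4 higher in the combination than PBS became 1 with a pseudocount of 50 CPM or a mean of at least 100 CPM, 8 with marker-gated classes and 13 after thinning.

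Single log2 ratios that changed sign in male-called cells were, for the combination against PBS in monocyte/macrophage-like cells, Oas1a at -0.25, Oasl1 at -0.22, Oasl2 at -0.14, Rsad2 at -0.33, Xaf1 at -0.00, Ube2l6 at -0.21 and Ifitm1 at -0.16. For anti-PD-L1 against PBS they were Oasl1 at -0.07, Ifi27l2a at -0.80, Ifi203 at -0.84, Ifi204 at -0.19, Xaf1 at -0.33 and Slfn5 at -0.24 in neutrophil-like and Ifi204 at -0.86 in T cell-like cells. After thinning, which leaves fewer UMIs, T cell-like cells had Dtx3l at 0.53 and Ifitm2 at 0.07 for LNP-cGAMP against PBS, Ifitm2 at 0.02 for the combination against anti-PD-L1, Xaf1 at 0.22 against LNP-cGAMP, and Dtx3l at 0.29, Ifitm1 at 0.03 and Ifitm2 at 0.16 against PBS. Dendritic cell-like cells then had Ifih1 at -0.22, Ifi35 at -0.70, Zbp1 at -0.00 and Trim25 at -0.31 for LNP-cGAMP against PBS and Slfn8 at 0.43 for the combination against LNP-cGAMP. Ifitm1 was at -0.20 within 1 monocyte/macrophage-like cluster for LNP-cGAMP against PBS, and at 0.15 with equal weights in T cell-like cells for the combination against PBS. Resolution 0.5 gave Bst2 at 0.27 against LNP-cGAMP and Rtp4 at -0.16 against PBS for the combination in neutrophil-like cells, and marker-gated classes gave Ifitm3 at 0.01 in T cell-like cells for the combination against LNP-cGAMP.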
